A study of Mus musculus with 9 samples.

Results

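Ribosomal proteins are the protein components of the cytosolic ribosome, which joins a small subunit that reads the mRNA to a large subunit that forms peptide bonds. Their genes are expressed at a high rate in dividing cells, and their products are needed in equal amounts, so the transcripts usually move together. Most of these mRNAs begin with a tract of pyrimidines that couples their translation to growth signalling through mTOR. The members described here are all genes that the platform annotation names Rpl or Rps with a number, and Rplp0, Rplp1, Rplp2 and Rpsa, on probe sets that name exactly 1 gene. Kinases of the Rps6k family and pseudogenes were left out. The rule found 59 of 19938 genes, of which 37 encode proteins of the large subunit and 22 of the small subunit. A gene with several such probe sets was represented by the one with the highest mean over the arrays.

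RNA was measured on 9 whole-transcript arrays of NIH-3T3 cells, an established line of mouse embryonic fibroblasts, with 3 arrays in each group. The control group received a RISC-free siRNA, a chemically altered duplex that the RNA silencing machinery does not take up. The mimic group received a commercial RNA that acts as mmu-miR-378-3p, and the inhibitor group a commercial RNA that blocks it. All groups received 25 nM RNA with the lipid reagent DharmaFECT 1 and were harvested after 48 h. No mimic or inhibitor of another sequence was analysed here, so responses to the kind of RNA and to this microRNA cannot be told apart. The labels call the arrays triplicates without naming separate cultures. The p-values therefore speak of the variation among these arrays, which may be technical. All 11 fibroblast markers examined lay above the level filter, and so did 6 of 22 markers of macrophages, epithelium, endothelium and muscle. Those 6 were Cd68 and Csf1r of macrophages, Pecam1 of endothelium, and Myod1, Ckm and Actn2 of muscle. Epcam, Cdh1 and Ptprc were among those below the filter on average. Of the 59 members, 58 lay above the filter and were tested. The lowest of these was Rpl10l, at a mean of 4.49 on the log2 scale, and the one left out was Rpl3l, at 3.36 against a limit of 3.86.

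With the inhibitor, the ribosomal protein genes were lower as a group. Of the 58 tested, 17 fell and 1 rose past an adjusted p of 0.05 in a limma fit over all 11963 genes. Over all genes tested, 3.76% fell and 11.1% rose, or 14.9% in either direction, against 31.0% of the members. An unadjusted p under 0.05 was reached by 29 of 58 members and by 28.8% of all genes tested. The mean of the inhibitor arrays was below that of the controls for 54 of 58 members, which was so for 45.8% of all genes. The median log2 fold change of the members was -0.13, or 1.09-fold, with an interquartile range of the members from -0.21 to -0.06, while the median of all genes tested was 0.01. Among the 2991 genes with the highest means, which held 50 of the 58 members, the median of the 2941 other genes was 0.07. In 35 members each inhibitor array lay below each control array, as in 12.8% of all genes tested, and 1 member lay above them, as in 24.9%. Together these made 36 members, against 37.7% of all genes. These values are relative to the other genes on the array. In bulk RNA, fewer cells with a transcript and less of it per cell cannot be told apart.

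The shift was seen on each of the 3 inhibitor arrays. Against the mean of the controls, the median over the 58 members was -0.16 on inhibitor 1, -0.10 on inhibitor 2 and -0.14 on inhibitor 3. It was 0.00, -0.01 and 0.01 on the 3 controls. Inhibitor 1 and inhibitor 3 each had 54 of 58 members below the control mean, and inhibitor 2 had 50. On inhibitor 1, the array farthest from the controls on the first principal component of all genes, the 2991 genes with the highest means, 50 members included, stood at a median of 0.13 above the controls. The same median was 0.02 on inhibitor 2 and 0.06 on inhibitor 3, so it had the opposite sign to that of the members on all 3 arrays and lay closest to 0 on inhibitor 2.

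**Figure D1:**
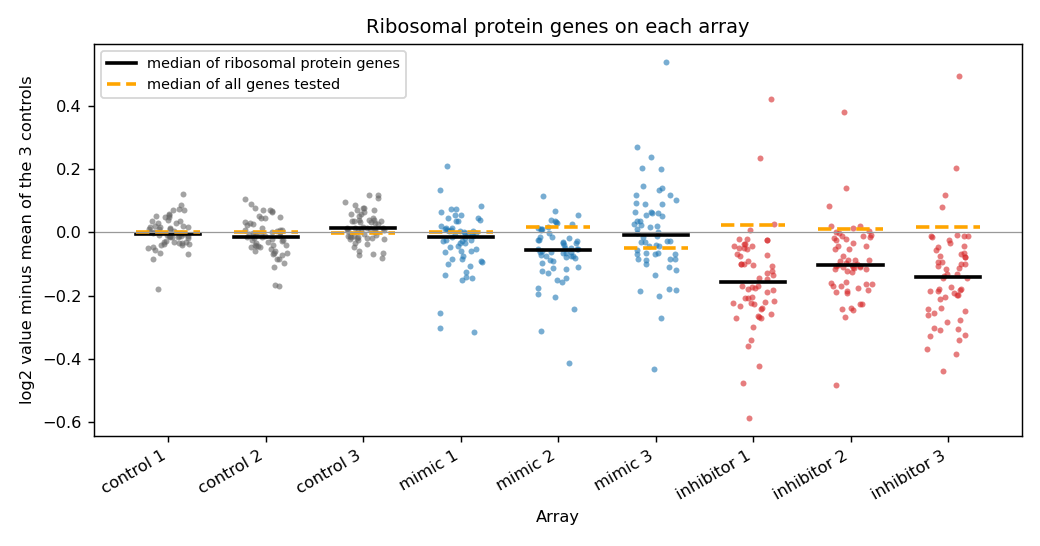
Each point is 1 of the 58 ribosomal protein genes tested on 1 of the 9 arrays, plotted as its log2 value minus its mean over the 3 controls; black lines are the members' medians and dashed orange lines the medians of all genes tested. The members' medians on the inhibitor arrays lie between -0.16 and -0.10, below those of the mimic arrays, which lie between -0.06 and -0.01.

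The number of genes called depended on single arrays, while the median did not. It dropped from 17 falls to 1 without control 3 and to 1 without inhibitor 3. It was 3 without control 1, 8 without control 2, 6 without inhibitor 1 and 21 without mimic 3. The share of all genes that fell in these reduced fits was not counted. The change in number can therefore not be read as particular to the ribosomal protein genes. The median log2 fold change stayed between -0.14 and -0.12 in these 9 fits. Leaving out a mimic array cannot change it, so only the fits without a control or inhibitor array bear on this. The falls were small, and 3 of the 17 reached 1.2-fold.

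The small subunit held 8 of the falls, among 22 genes tested, and the mean of all 22 was lower with the inhibitor, at a median of -0.17. Rps21 (gene ID 66481), a component of the small subunit needed for maturation of its rRNA, fell most. It read 8.61, 8.38 and 8.67 on the controls, 8.57, 8.57 and 9.09 on the mimic arrays and 7.97, 8.07 and 8.12 on the inhibitor arrays (log2). The inhibitor arrays lay below all others, and mimic 3 lay highest. The log2 fold change with the inhibitor was -0.50 with a standard error of 0.13, a 1.42-fold fall (limma, adjusted p = 0.0282).

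Rps29 (gene ID 20090), which encodes a short zinc-binding protein of the small subunit, read 9.07, 8.98 and 9.08 on the controls and 8.57, 8.80 and 8.66 on the inhibitor arrays. On the mimic arrays it read 8.98, 9.01 and 9.25, so that the control and mimic ranges overlapped and the inhibitor range stood below both. Its log2 fold change was -0.37 ± 0.08 (SE; limma, adjusted p = 0.0134). Rps9, an rRNA-binding protein that assembles early on the small subunit, read 9.92, 9.74 and 9.89 on the controls and 9.61, 9.61 and 9.57 on the inhibitor arrays. It fell by 0.25 ± 0.06 (SE; limma, adjusted p = 0.024), and its mimic values of 9.89, 9.77 and 9.71 overlapped the controls.

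Rps13 (gene ID 68052), an rRNA-binding protein of the small subunit body, read 7.50, 7.50 and 7.52 on the controls, 7.48, 7.45 and 7.51 on the mimic arrays and 7.30, 7.28 and 7.20 on the inhibitor arrays. The inhibitor group lay below both others without overlap. Its fall of 0.25 ± 0.05 (SE; limma, adjusted p = 0.00649) was the one fall among the 17 that was called whichever of the 9 arrays was omitted. Rps20, a protein of the small subunit head, read 10.44, 10.34 and 10.40 on the controls and 10.18, 10.21 and 10.07 on the inhibitor arrays, a fall of 0.24 ± 0.05 (SE; limma, adjusted p = 0.013). Its mimic values of 10.39, 10.36 and 10.37 lay within the control range. Rps25, which takes part in initiation at internal ribosome entry sites, fell by 0.22, Rps12 by 0.19 and Rps15 by 0.18 (limma, adjusted p of at most 0.0371).

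**Figure D2:**
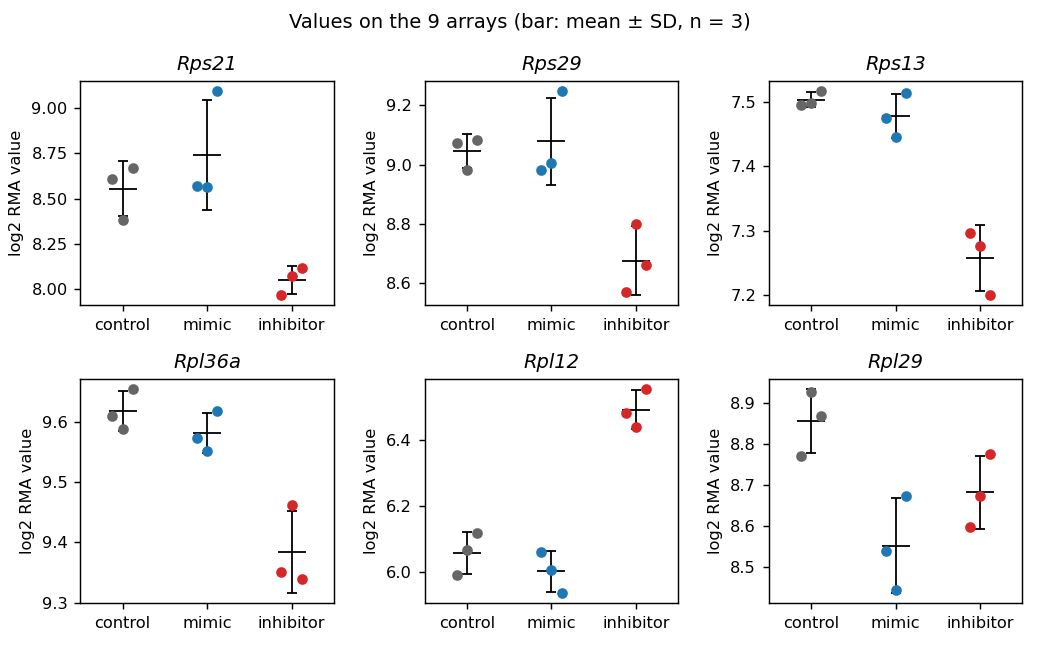
Log2 values of 6 ribosomal protein genes on the 9 arrays, with points for arrays and bars for the mean ± SD of 3 arrays per group; each panel has its own axis. Rps21, Rps29, Rps13 and Rpl36a are lowest on the inhibitor arrays, Rpl12 is highest there, and Rpl29 is lowest on the mimic arrays.

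The large subunit held 9 falls and 1 rise among 36 genes tested, with 32 means below the control and a median of -0.12. Rpl34 fell most there. It read 6.33, 6.21 and 6.38 on the controls and 6.08, 6.07 and 5.94 on the inhibitor arrays, without overlap, and its log2 fold change was -0.28 ± 0.07 (SE; limma, adjusted p = 0.0199). The other probe sets naming Rpl34, which name other genes too, read higher, with control means of 9.42 to 10.23. They stood at -0.45 to -0.35 with the inhibitor, so the size of the fall depends on the probe set. Rpl23a, which lies at the exit of the peptide tunnel, was low in both treated groups. Its values were 10.14, 9.99 and 10.08 on the controls, 9.77, 9.76 and 9.98 on the mimic arrays and 9.77, 9.91 and 9.82 on the inhibitor arrays. Both treated ranges lay below the controls. The fall of 0.24 ± 0.07 with the inhibitor passed the threshold narrowly (limma, adjusted p = 0.0499), while the mimic value of -0.23 ± 0.07 did not (limma, adjusted p = 0.118). The 13 probe sets that name Rpl23a alone stood at -0.32 to -0.24 with the inhibitor and at -0.29 to -0.23 with the mimic. Rpl37a, Rpl36a and Rpl38, which is known for a role in the translation of Hox mRNAs, fell by 0.24, 0.23 and 0.23. Rpl24, at the interface with the small subunit, fell by 0.22, Rpl7a by 0.21, Rpl10a by 0.18 and Rpl22 by 0.18 (limma, adjusted p of at most 0.048 for these 7 genes).

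Members with roles outside protein synthesis were examined by name. Rpl5, which with the smallest large-subunit rRNA can bind Mdm2 and so stabilise p53, had a log2 fold change of -0.01 with the inhibitor (95% interval from -0.16 to 0.14). Rps3, which also has a role in DNA repair, stood at -0.02, Rps6, the ribosomal substrate of the kinases named after it, at -0.13, and Rpsa, also known as a laminin receptor, at -0.06. Of the stalk proteins that recruit elongation factors, Rplp0 stood at -0.05, Rplp1 at -0.06 and Rplp2 at 0.07. None of these 7 passed the threshold (limma, adjusted p of at least 0.11), which does not show that they were unchanged.

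**Figure D3:**
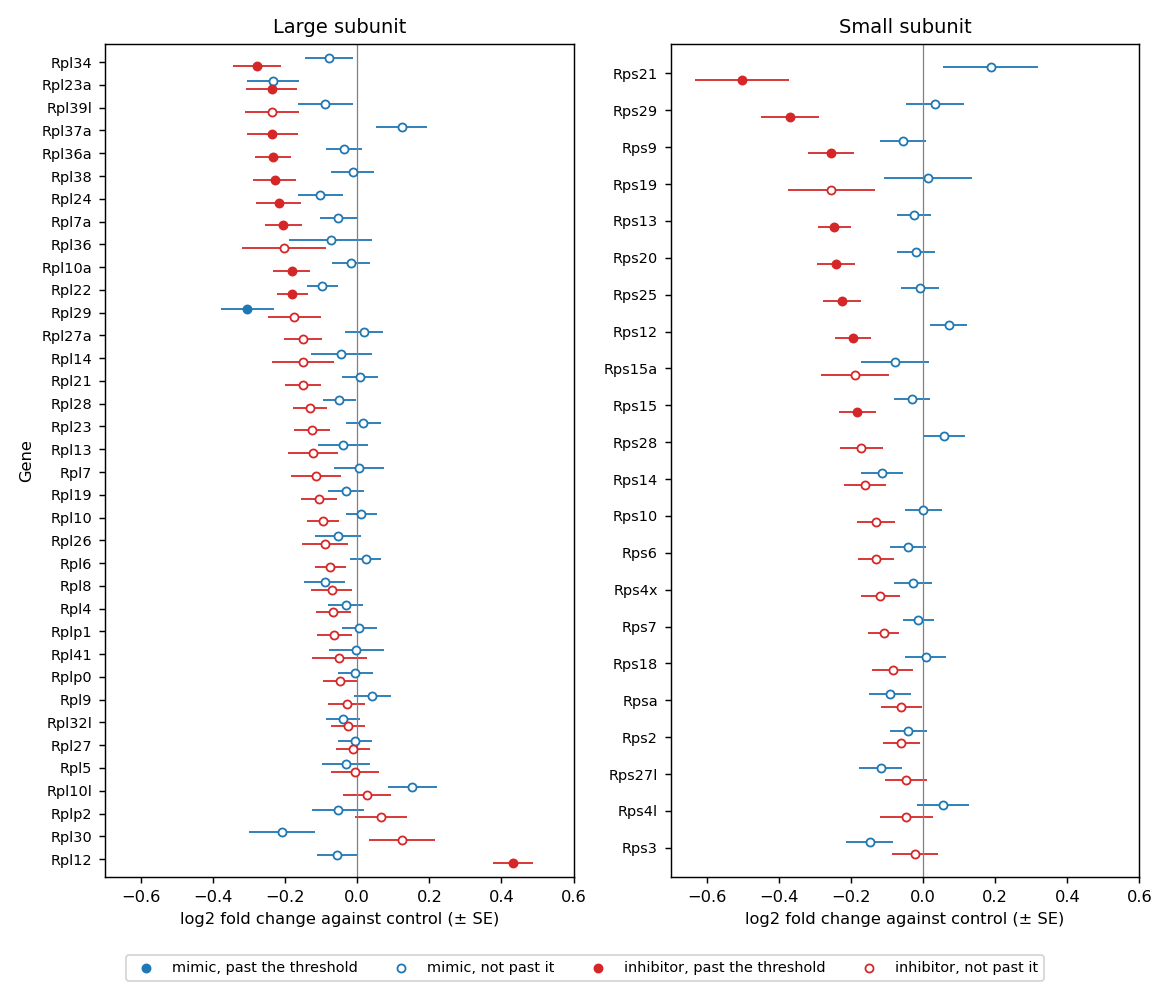
Log2 fold change against the control, with its standard error, for the 58 ribosomal protein genes tested, by subunit; blue is the mimic, red the inhibitor, and filled points passed an adjusted p of 0.05 (limma). Red points lie left of 0 for all 22 small-subunit genes and 32 of 36 large-subunit genes, with Rpl12 the 1 called gene to the right, while 1 blue point, Rpl29, is filled.

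Rpl12 (gene ID 269261), which encodes a protein at the base of the ribosomal stalk, was the only member called higher. It read 5.99, 6.07 and 6.12 on the controls, 6.06, 6.01 and 5.94 on the mimic arrays and 6.48, 6.44 and 6.55 on the inhibitor arrays. The inhibitor arrays stood above all others. The log2 fold change was 0.43 ± 0.06 (SE; limma, adjusted p = 0.000944), and the call was made whichever of the 9 arrays was omitted. This value rests on 1 probe set, whose annotation lists a single cDNA record. The 8 other probe sets that name Rpl12 also name a second gene, and all were lower with the inhibitor, by -0.29 to -0.13. One of those 8 names Snora65, a small nucleolar RNA encoded in an intron of Rpl12, and lists the same cDNA record. The rise of Rpl12 is therefore a measurement of 1 probe set that the other probe sets of the gene did not share.

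Rpl30, another rRNA-binding protein of the large subunit, showed a similar split. The probe set that stood for it read 8.01, 8.07 and 8.04 on the controls, 7.90, 7.99 and 7.61 on the mimic arrays and 8.27, 8.06 and 8.15 on the inhibitor arrays. The inhibitor range overlapped the controls, with a log2 fold change of 0.12 (limma, adjusted p = 0.43). The 10 other probe sets naming Rpl30, which name other genes too, stood at -0.10 to -0.05 with the inhibitor and at -0.01 to 0.03 with the mimic.

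Most other genes had probe sets that pointed the same way. The 58 members had 214 probe sets that named 1 gene and lay above the level limit, of which 202 held distinct values. The inhibitor mean was below the control mean on 209 of them, against 46.3% of all 13139 such probe sets. Among the 39 members with more than 1 such probe set, all pointed down in 38, and Rpl23 had 1 up (0.03) and 1 down (-0.12). Rps21 had a second probe set at -0.49, and the 4 probe sets of Rps29 ran from -0.42 to -0.37. Probe sets of 1 gene can read the same transcript or its processed pseudogenes, so they are no independent measurements. For some genes another probe set changed more than the one of highest mean. For Rps9 it stood at -0.25 and the other at -0.47, for Rplp1 at -0.06 and the other at -0.23, and for Rpsa at -0.06 with 4 others down to -0.23.

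**Figure D4:**
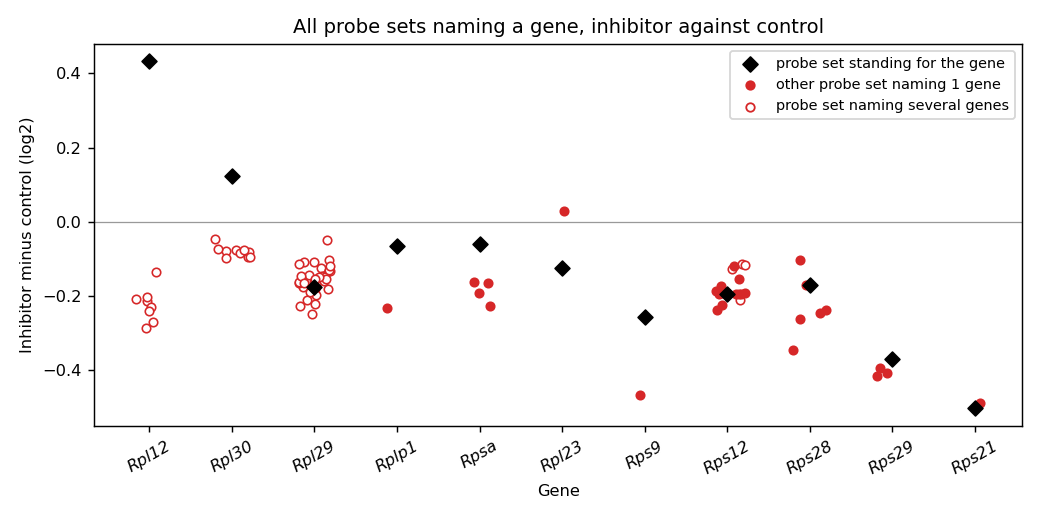
Difference of the inhibitor and control means (log2) for all probe sets above the level limit that name 1 of 11 ribosomal protein genes; black diamonds stand for the gene in the tests, filled red points are other probe sets of 1 gene, and open points name further genes. For Rpl12 and Rpl30 the diamond lies above 0 and the open points below, while the probe sets of Rps21 and Rps29 lie close together.

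A further 16 ribosomal protein genes were found only on probe sets that name several genes, and so fall outside the rule. When the probe set of highest mean for each was added to the fit, 5 of the 16 fell with the inhibitor, all 16 had a log2 fold change below 0, and their median was -0.17. In the main fit 3.76% of all genes tested fell and 45.8% were below 0. Rpl39, a short protein in the peptide exit tunnel, fell by 0.48 ± 0.08 (SE; limma, adjusted p = 0.0032), and Rps27, a zinc-binding protein of the small subunit, fell by 0.34. Rpl31, Rpl36al and Rpl15 fell by 0.28, 0.22 and 0.17 (limma, adjusted p of at most 0.0414). Rpl11, the partner of Rpl5 in binding Mdm2, stood at -0.17 (limma, adjusted p = 0.0562).

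Paralogues of ribosomal protein genes are often expressed in special tissues. Rpl39l, whose protein replaces Rpl39 in male germ cells, read 7.15, 7.08 and 7.26 on the controls and 6.932, 6.995 and 6.855 on the inhibitor arrays. Its ranges did not overlap, and its log2 fold change of -0.24 did not pass the threshold (limma, adjusted p = 0.0632). Rps27l, a target of p53, stood at -0.05 with the inhibitor, with 5.69, 5.71 and 5.81 on the controls and 5.71, 5.63 and 5.73 on the inhibitor arrays. Its partner Rps27 fell by 0.34 on its shared probe set. Rps4l stood at -0.05 and Rps4x at -0.12, Rpl10l at 0.03 and Rpl10 at -0.09, and Rpl32l at -0.03. Rpl7l1, outside the naming rule, stood at 0.11 (limma, adjusted p = 0.118) and Rpl7 at -0.11. None of these 7 passed the threshold. Rps3a1, also outside the rule, had a log2 fold change of -0.11 with the mimic and -0.10 with the inhibitor, neither past it.

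With the mimic, the ribosomal protein genes stayed near the control. Of the 58 tested, 1 fell and 0 rose (limma), where 2.45% and 1.1% of all genes tested did so, or 3.55% in either direction. The mean was below the control for 40 of 58 members and for 52.8% of all genes. An unadjusted p under 0.05 was reached by 6 of 58 members, or 10.3%, against 15.9% of all genes. The median log2 fold change was -0.03, against -0.01 for all genes. It turned to 0.01 after quantile normalization of the arrays and was -0.04 after median centring. The median of all genes was 0.003 and -0.01 under these scalings. On the single arrays the members' median was -0.01 on mimic 1, -0.06 on mimic 2 and -0.01 on mimic 3, although mimic 3 lay at the far end of the first principal component from the inhibitor arrays. Groups did not overlap in 10 members, 7 of them lower and 3 higher, against 12.7% and 8.67% of all genes tested, or 21.3% together.

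Rpl29 (gene ID 19944), a basic protein of the large subunit, was the 1 member called with the mimic. It read 8.77, 8.93 and 8.87 on the controls, 8.54, 8.44 and 8.67 on the mimic arrays and 8.60, 8.67 and 8.78 on the inhibitor arrays. Each mimic array lay below each control, whereas the highest inhibitor array reached the lowest control. The fall of 0.30 ± 0.07 passed the threshold narrowly (limma, adjusted p = 0.0491) and held in 2 of the 9 fits that each omit an array, where the adjusted p reached 0.181. It was not called after quantile normalization or cyclic loess. The 35 other probe sets that name Rpl29 together with other genes were all lower with the mimic, at -0.30 to -0.14.

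The other members were not called. Rpl23a, whose values and other probe sets are given with the large subunit, had the next smallest p. Its mimic arrays lay below the controls without overlap at a log2 fold change of -0.23 (limma, adjusted p = 0.118). After it came Rps3 and Rpl10l. Rps3 read 9.73, 9.64 and 9.57 on the controls and 9.54, 9.58 and 9.37 on the mimic arrays, which overlapped, at a log2 fold change of -0.15 (limma, adjusted p = 0.293). Rpl10l, a retrogene copy of Rpl10 used in male germ cells, read 4.43, 4.42 and 4.44 on the controls and 4.57, 4.49 and 4.70 on the mimic arrays. Its groups did not overlap, and its log2 fold change was 0.15 (limma, adjusted p = 0.298).

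The direct comparison of mimic and inhibitor uses the same inhibitor arrays, so it is given beside the others and not as independent evidence. Of the 58 members, 15 were higher with the mimic than with the inhibitor and 2 were lower (limma), where 6.91% of all genes tested were higher and 19.9% lower, or 26.8% in either direction. The arrays of both groups did not overlap in 31 members, 28 of them higher with the mimic and 3 lower, against 38.6%, 12.9% and 25.7% of all genes. The difference was below 0 in 10 members and in 53.6% of all genes. The median difference of the members was 0.10 and that of all genes -0.02. Rps21 differed by 0.69 ± 0.13 (SE; limma, adjusted p = 0.00357) and Rps29 by 0.40 ± 0.08 (SE; limma, adjusted p = 0.00479).

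Rpl37a read 9.13, 9.19 and 9.28 on the mimic arrays and 8.72, 8.97 and 8.83 on the inhibitor arrays, with controls at 9.11, 9.01 and 9.11 between them. It differed by 0.36 ± 0.07 (SE; limma, adjusted p = 0.00411). Rps12 read 10.19, 10.15 and 10.21 with the mimic and 9.91, 10.00 and 9.85 with the inhibitor, on either side of the controls at 10.10, 10.10 and 10.14, a difference of 0.26 (limma, adjusted p = 0.00369). Rps28, a short protein of the small subunit head, read 9.58, 9.54 and 9.65 with the mimic and 9.36, 9.26 and 9.46 with the inhibitor, without overlap, and differed by 0.23. Its controls, at 9.49, 9.55 and 9.54, overlapped the mimic arrays and lay above the inhibitor arrays. Rps13, Rps20, Rps25, Rpl38, Rps9, Rpl36a, Rpl27a, Rpl10a, Rpl21 and Rpl7a were also higher with the mimic, by 0.15 to 0.22. Rpl12 and Rpl30 were lower with the mimic, by -0.49 and -0.33, on the probe sets that went against the others of their genes. The count of higher members was 8 to 13 with single arrays left out, at 8 without inhibitor 3, 9 without inhibitor 1 and 9 without mimic 1. The share of all genes was not counted in those fits.

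**Figure D5:**
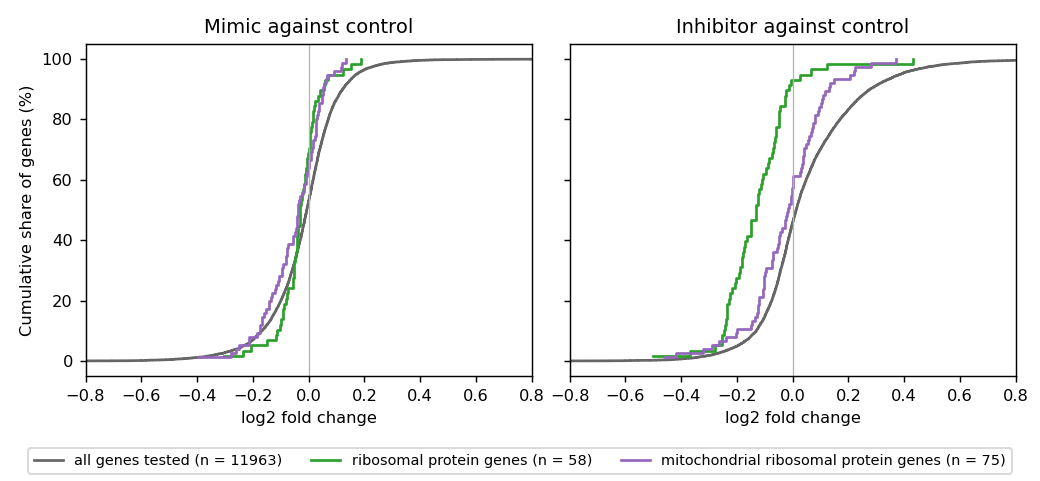
Cumulative share of genes (%) by log2 fold change against the control, for all 11963 genes tested, 58 cytosolic and 75 mitochondrial ribosomal protein genes. The curve of the cytosolic genes lies left of the others over most of its range with the inhibitor, where their median is -0.13 and the mitochondrial median -0.02 (-0.10 and -0.08 after quantile normalization), and close to them with the mimic.

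Translation initiation factors, which bring the mRNA to the small subunit, mostly lay above the control with the inhibitor. Of 24 tested, 8 rose and 1 fell (limma), where 11.1% and 3.76% of all genes tested did so, and 5 rose after median centring. Their median log2 fold change was 0.15, beside 0.01 for all genes and 0.07 for the strongly detected genes other than members. Eif5, which promotes start codon selection, rose by 0.47, Eif3b and Eif3a, core subunits of the factor that binds the small subunit, rose by 0.43 and 0.35. The fall was that of Eif3k (-0.36), a peripheral subunit of the same factor, which also fell with the mimic (-0.34). Of 5 genes tested with elongation factor symbols, Eef1e1, an elongation factor by its symbol only, rose by 0.40 and none fell. Eef1a1, Eef1b2, Eef1d and Eef2 were not called. Of 8 partners of the ribosome, Abce1, which recycles ribosomes after termination, rose by 0.51 and none fell, while 3 rose after cyclic loess. The medians of both lists were -0.01 and turned to 0.05 and 0.03 after quantile normalization. The changes named here passed the threshold with the inhibitor (limma, adjusted p of at most 0.04). These lists held 2 falls, those of Eif3k and Eif3l (-0.27), and no rise with the mimic (limma, 5 members with an unadjusted p under 0.05), and 1 fall after cyclic loess. Of all genes tested, 2.45% fell and 1.1% rose with the mimic, and 15.9% had an unadjusted p under 0.05 (limma).

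A list of 14 tested genes tied to growth signalling and translation held parts of the mTOR pathway together with its brakes. Its calls therefore give no direction of signalling. With the inhibitor 4 of the 14 rose and none fell (limma), where 11.1% and 3.76% of all genes tested did so. The 4 that rose were Larp4 (0.62), a poly(A)-binding factor, Larp1 (0.50), which binds the pyrimidine tract of ribosomal protein mRNAs, Sesn2 (0.27) and Mtor (0.23). The list's median of 0.07 turned to -0.03 after quantile normalization. Of 4 host transcripts of small nucleolar RNAs tested, Snhg5, Dancr and Snhg15 rose by 0.36, 0.36 and 0.34. All these changes with the inhibitor passed the threshold (limma, adjusted p of at most 0.044). After quantile normalization, and also after median centring, 3 of the 14 signalling genes and 2 of the 4 host transcripts rose. Of the 11963 genes tested, 1269 and 1101 rose under these scalings. With the mimic none of the 14 signalling genes and none of the 4 host transcripts was called (limma, 5 and 1 with an unadjusted p under 0.05), and 1 signalling gene fell after quantile normalization. Of all genes tested, 3.55% were called with the mimic and 15.9% had an unadjusted p under 0.05 (limma), and 3.67% fell after quantile normalization.

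Ribosomal proteins of mitochondria, encoded in the nucleus like the cytosolic ones, gave a pattern with the inhibitor that depended on the scaling. Of 75 tested, 6 fell and 2 rose (limma), where 3.76% and 11.1% of all genes tested did so. Their median was -0.02, which was 0.00 after median centring. After quantile normalization 10 fell and 2 rose, and after cyclic loess 9 and 2. Of all genes tested, 8.54% and 7.1% fell under these scalings. The mitochondrial median was then -0.08 and -0.07, beside -0.10 and -0.11 for the cytosolic genes. Mrpl23, Mrps21 and Mrpl24 fell by 0.46, 0.42 and 0.32, and Mrps18b and Mrps22 rose by 0.37 and 0.22. With the mimic 3 of 75 fell, Mrps33 by 0.40, Mrpl30 by 0.28 and Mrpl19 by 0.26, and none rose (limma, 14 with an unadjusted p under 0.05 in either direction). Of all genes tested, 2.45% fell and 1.1% rose with the mimic, and 15.9% had an unadjusted p under 0.05 (limma). The difference between the cytosolic and mitochondrial genes was not tested.

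Because many members were lower together, their promoters were searched for shared letters. RefSeq promoters (GRCm38.p6, 250 bases before to 50 after a gene's start) were matched for 47 of the 59 members. The sequence CCGGAAG, the core of ETS family sites such as those of Gabpa, was found on either strand in 18 of 47 members, or 38.3%, and in 9.93% of 27025 genes with a promoter. It was present in 4 of 14 matched members that fell with the inhibitor and in 14 of 32 others tested. A start on C followed by 4 pyrimidines, as in mRNAs with a pyrimidine tract, was annotated in 10 of 47 members, or 21.3%, and in 3.01% of all genes. It was seen in 2 of the 14 that fell and in 8 of the 32 others. TATAAA was found in 12.8% of the members and 15.7% of all genes, and AAGATGGC, the core of a YY1 site, in 4.26% and 3.19%. CCGGAAG and AAGATGGC can share the letters AAG, and a match is a description of letters only.

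The 100 bases before the most upstream annotated start are shown for 4 members that fell with the inhibitor and for Rpl12, as examples with and without the ETS core, which is in capitals. They are Rps21 (chr2:180257279-180257378, plus strand), Rps25 (chr9:44407614-44407713, plus strand), Rpl38 (chr11:114668480-114668579, plus strand), Rps13 (chr7:116334191-116334290, minus strand) and Rpl12 (chr2:32961612-32961711, plus strand). Rps21 holds the core at 2 places, Rps25 and Rpl38 at 1, and Rps13 and Rpl12 at 0 in this window.
Rps21: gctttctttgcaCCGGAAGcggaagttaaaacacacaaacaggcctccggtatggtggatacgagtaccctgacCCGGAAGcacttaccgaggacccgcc
Rps25: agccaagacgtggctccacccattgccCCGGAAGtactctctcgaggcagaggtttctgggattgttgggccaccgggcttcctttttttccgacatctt
Rpl38: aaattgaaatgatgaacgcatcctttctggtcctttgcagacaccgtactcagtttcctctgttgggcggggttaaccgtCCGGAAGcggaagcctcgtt
Rps13: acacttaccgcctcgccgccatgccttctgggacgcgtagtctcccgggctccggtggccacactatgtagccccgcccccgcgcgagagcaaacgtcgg
Rpl12: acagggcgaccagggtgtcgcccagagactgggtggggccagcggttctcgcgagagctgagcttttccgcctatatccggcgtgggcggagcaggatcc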

How the data were processed

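RNA from 9 arrays of transfected NIH-3T3 cells, 3 per group, was analysed. The deposited values are log2 expression per probe set, which the authors made with RMA in Partek 6.5, per the submitters' processing notes. Which genome build the array design used was not given in the sources used here. RMA is meant to bring the arrays to a common distribution, so values are relative to the other probe sets, and small changes are shrunk near the background. The deposited arrays still differed, with medians over all probe sets from 3.94 to 4.03. The 2991 genes with the highest means stood at a median of -0.14 on mimic 3 and 0.13 on inhibitor 1 against the controls. Of 28853 probe sets, the platform annotation names 1 gene for 21789, several for 1621 and none for 5443. Genes whose mean was at or above the 40th percentile of all gene means (3.86) were tested with limma 3.58.1 in R 4.3.3, in 1 fit over the 9 arrays with a coefficient per group, 6 residual degrees of freedom and empirical Bayes moderation. P-values were adjusted by Benjamini-Hochberg over all 11963 genes for each comparison, with a threshold of 0.05. The script was tested on simulated data. Precision is limited by having 3 arrays a group. A typical gene had a residual SD after empirical Bayes moderation of 0.08 (log2, median over genes).

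Every member past the threshold was named, and array values were given for up to 8 members per comparison with the largest change, or for the 4 with the smallest p where fewer than 4 passed. All paralogues, and up to 4 called genes of each other list by size of change in each comparison, were also named. Mrps22, genes found only on shared probe sets and members named for roles outside protein synthesis were chosen after their values were seen. The members and lists were chosen with earlier results of these data known. Alternatives covered the level filter, normalization, moderation, choice of probe set, membership, arrays in the fit and a replicate block. Promoters came from RefSeq, and Python 3.11.15 with matplotlib 3.10.9 made the plots.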

Additional observations from a re-analysis of the deposited data

How the results depend on the processing

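Leaving out single arrays gave 1 to 21 falls, 1 rise and a median of -0.14 to -0.12 with the inhibitor. It gave 0 to 2 falls, 0 rises and a median of -0.03 to -0.01 with the mimic, and 8 to 13 higher, 1 to 2 lower and a median of 0.0789 to 0.1332 for mimic against inhibitor. Of 18 calls with the inhibitor, 2 held in all 9 fits, those of Rpl12 and Rps13. The falls with the inhibitor numbered 10 after median centring, 15 after quantile normalization and 13 after cyclic loess. Of all genes tested, 2.26%, 8.54% and 7.1% fell under these scalings, against 3.76% in the main fit. The falls numbered 11 with a replicate block and 3 at a fold of at least 1.2. Shares of all genes tested were counted for the normalizations and not for the other alternatives. The members' median was -0.10 after quantile normalization. The 1 fall with the mimic became 0 without a level filter, after quantile normalization, after cyclic loess, with only the 6 arrays compared and with a replicate block. Of all genes tested, 3.67% and 3.49% fell with the mimic after quantile normalization and cyclic loess. The members' mimic median was 0.0083 after quantile normalization, -0.0043 after cyclic loess and -0.0387 after median centring. For mimic against inhibitor the median was 0.0701 after median centring, 1 member was lower with only the 6 arrays compared, and 4 were higher at a fold of at least 1.2. The members' direction with the inhibitor held under each normalization tried, with 51 to 54 of 58 below 0. The median of all genes tested ran from -0.0037 after quantile normalization to 0.0342 after median centring.

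Of all genes tested, 1330 rose and 450 fell with the inhibitor, against 1269 and 1022 after quantile normalization. No consistent pairing by the labels' replicate numbers was seen. Same-numbered arrays of different groups correlated from -0.589 to 0.224 in their deviations from the group means. With 3 arrays per group these values cannot show that a weaker pairing was absent. Differently numbered arrays of different groups ran from -0.58, for mimic 3 and inhibitor 1, to 0.634, for mimic 2 and inhibitor 1. Some alternatives were chosen after seeing the data. Without mimic 3 and inhibitor 1 there were 3 falls with the mimic, without a count over all genes. With the genes of shared probe sets added, 23 were higher with the mimic than with the inhibitor, 7 of them among the 16 genes added. In the main fit 6.91% of all genes tested were higher. The causes of these differences were not tested.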
